A study of Rattus norvegicus with 28 samples.

Results

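ATF4 and 9 genes tied to it in the cellular stress response were followed in rat kidney fibroblasts given transforming growth factor β1 (TGF-β), with or without methionine restriction or depletion of the homeobox factor Hoxc8. The genes were taken by name (Atf4, Atf5, Atf3, Ddit3, Trib3, Chac1, Stc2, Cebpb, Cebpg and Ppp1r15a), so they are 10 of the 30178 genes in the deposited expression table. The rule that takes them uses no measured value, but the names were chosen with earlier results of these data known. Counts of called members are therefore a description and not an independent test. All 10 passed the filter on low values. RNA-seq of polyadenylated RNA covered 8 libraries of NRK-49F, a rat kidney fibroblast line, with 2 in each of 4 groups. The first group had TGF-β and methionine restriction (MetR), in a medium with 30 uM methionine where its control medium has 200 uM. The second had TGF-β and a small interfering RNA against Hoxc8 (siHoxc8). The third had TGF-β alone, and the fourth was untreated control. The titles give 48 h for the TGF-β libraries and no time for control, and cells were starved for 24 h in 0.2% serum and then given TGF-β1 at 5 ng per uL, as the labels print the unit. For the libraries with TGF-β alone the labels name no control siRNA and do not say which medium was used. An effect of transfection or of the base medium therefore cannot be told apart from those of Hoxc8 depletion and of methionine. Separate cultures are not stated for replicates, so each p-value reflects the spread between libraries, which may be technical.

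ATF4 is a basic leucine zipper (bZIP) transcription factor whose mRNA is translated better when the initiation factor eIF2 is phosphorylated. The kinases that do this sense amino acid shortage (GCN2), unfolded protein in the endoplasmic reticulum (PERK), double-stranded RNA (PKR) and heme shortage or mitochondrial stress (HRI). ATF4 then binds composite C/EBP-ATF sites and raises genes for amino acid uptake and synthesis, further transcription factors and regulators that feed back on the pathway. Much of its control is at translation, which mRNA levels do not show.

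Each library held 15118113 to 20146870 reads assigned to the listed genes, recovered from the steps between the values. The members had 522 to 25022 reads per library, apart from Atf3 with 70 to 1128. Of 9 fibroblast markers 8 were listed and 6 averaged at least 1 FPKM (fragments per kilobase, scaled to library size), with a sum of 5913 to 12723 FPKM per library, while Thy1 was listed at 0 throughout. Of the 5 epithelial markers only Krt8 averaged at least 1 FPKM and Epcam was listed at 0. Krt8 had 685 and 646 FPKM in siHoxc8 cells, 230.3 and 252 FPKM in MetR cells, 194 and 225 FPKM with TGF-β alone and 238 and 236 FPKM in control, and the epithelial sum was 194 to 686 FPKM. Col3a1, a fibroblast marker, had 2588 and 2785 FPKM in siHoxc8 cells, against 367 and 374 FPKM with TGF-β alone. The part of either in the siHoxc8 results was not tested. The endothelial and leukocyte markers summed to at most 0.908 and 2.73 FPKM. Hoxc8 had 0.463 and 0.0771 FPKM in siHoxc8 cells, against 4.32 and 5.01 FPKM in cells with TGF-β alone. It was also low in MetR cells, at 0.417 and 0.614 FPKM. Mat2a, the methionine adenosyltransferase whose mRNA is known to rise when its product is short, had 293 and 402 FPKM in MetR cells, against 69.8 and 74.6 FPKM with TGF-β alone. The MetR libraries stood furthest apart from each other, with a median absolute log2 difference between replicates of 0.244, against 0.0820 for siHoxc8, 0.167 for TGF-β and 0.0799 for control. The main differences of the members in MetR cells are therefore also given for each MetR library. Each standard error (SE) and p-value of the main test rests on 1 spread per gene shared by all 4 groups. This shared spread can be too small for comparisons with MetR and too large for the others.

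Under methionine restriction 9 of the 10 genes rose relative to TGF-β alone, and Atf5 did not pass the test. The rises ran from 2.13-fold for Atf4 itself to 8.78-fold for Stc2. Both MetR libraries were above both TGF-β libraries for these 9 genes, but with 2 libraries per group such separation is weak evidence. In TGF-β against control 8 of the 10 members also had groups that did not overlap. The share of all genes without overlap was not counted. Across all 12315 genes tested by limma on log2(FPKM + 1), with adjusted p under 0.05, 34.8% were raised in this comparison and 19.0% were lowered. The median log2 fold change was 1.94 for the members and 0.18 for all genes tested. With the libraries rescaled by median ratios, which set the median of all genes to -0.00, the shares were 25.5% raised and 26.6% lowered and the median of the members was 1.72. The same 9 calls were made under each of 17 alternative settings. In bulk libraries a larger share of responding cells and more RNA per cell cannot be told apart.

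Atf4 mRNA was 542 and 738 FPKM in MetR cells, against 281 and 319 FPKM with TGF-β alone. The groups did not overlap, and the log2 fold change was 1.07 ± 0.15 (SE, adjusted p = 0.00100). Cebpg, which encodes C/EBPγ, a bZIP partner that dimerizes with ATF4, had 51.1 and 82.0 FPKM in MetR cells, against 25.0 and 28.2 FPKM in TGF-β cells (1.25 ± 0.20, adjusted p = 0.00159). Cebpb, the related factor C/EBPβ, had 226 and 282 FPKM, against 62.4 and 72.6 FPKM with TGF-β alone (1.89 ± 0.13, adjusted p = 8.26e-05). For both C/EBP genes the lower MetR library stood above every TGF-β library.

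Ddit3 encodes CHOP, a C/EBP family factor tied to cell death under prolonged stress. It had 149.5 and 197 FPKM in MetR cells, against 54.5 and 59.9 FPKM in TGF-β cells (1.57 ± 0.14, adjusted p = 0.00019). Atf3, a bZIP factor induced early by many stresses, was the least abundant member, with 7.09 and 22.2 FPKM in MetR cells and 1.61 and 1.87 FPKM in TGF-β cells (2.32 ± 0.41, adjusted p = 0.00262). Its MetR libraries differed from each other more than those of any other member. Atf5, a close relative of ATF4 whose translation is controlled in a like way, had 328 and 242 FPKM in MetR cells, against 310.2 and 308 FPKM in TGF-β cells. Its groups overlapped (-0.13 ± 0.14, adjusted p = 0.468), with 1 MetR library above and the other below both TGF-β libraries. Without MetR replicate 1 it was called lower, at -0.35 (adjusted p = 0.0141), over a range of 0.0141 to 0.667 across the alternatives.

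Of the effectors, Stc2, the secreted glycoprotein stanniocalcin 2, had 158 and 245 FPKM in MetR cells, against 25.4 and 20.4 FPKM in TGF-β cells (3.05 ± 0.20, adjusted p = 7.03e-05). Ppp1r15a encodes GADD34, the subunit that directs a phosphatase to eIF2 and so reverses the signal. It had 136 and 271 FPKM in MetR cells, against 34.9 and 35.7 FPKM in TGF-β cells (2.41 ± 0.27, adjusted p = 0.000419). Trib3, a pseudokinase that is a target of ATF4 and CHOP and restrains ATF4, had 191 and 299.9 FPKM, against 45.8 and 47.6 FPKM with TGF-β alone (2.33 ± 0.19, adjusted p = 0.000122). Chac1 encodes an enzyme that breaks down glutathione. It had 224 and 234 FPKM in MetR cells, against 56.0 and 58.7 FPKM with TGF-β alone (1.98 ± 0.10, adjusted p = 4.23e-05), and its MetR libraries lay closest together among the members.

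**Figure D1:**
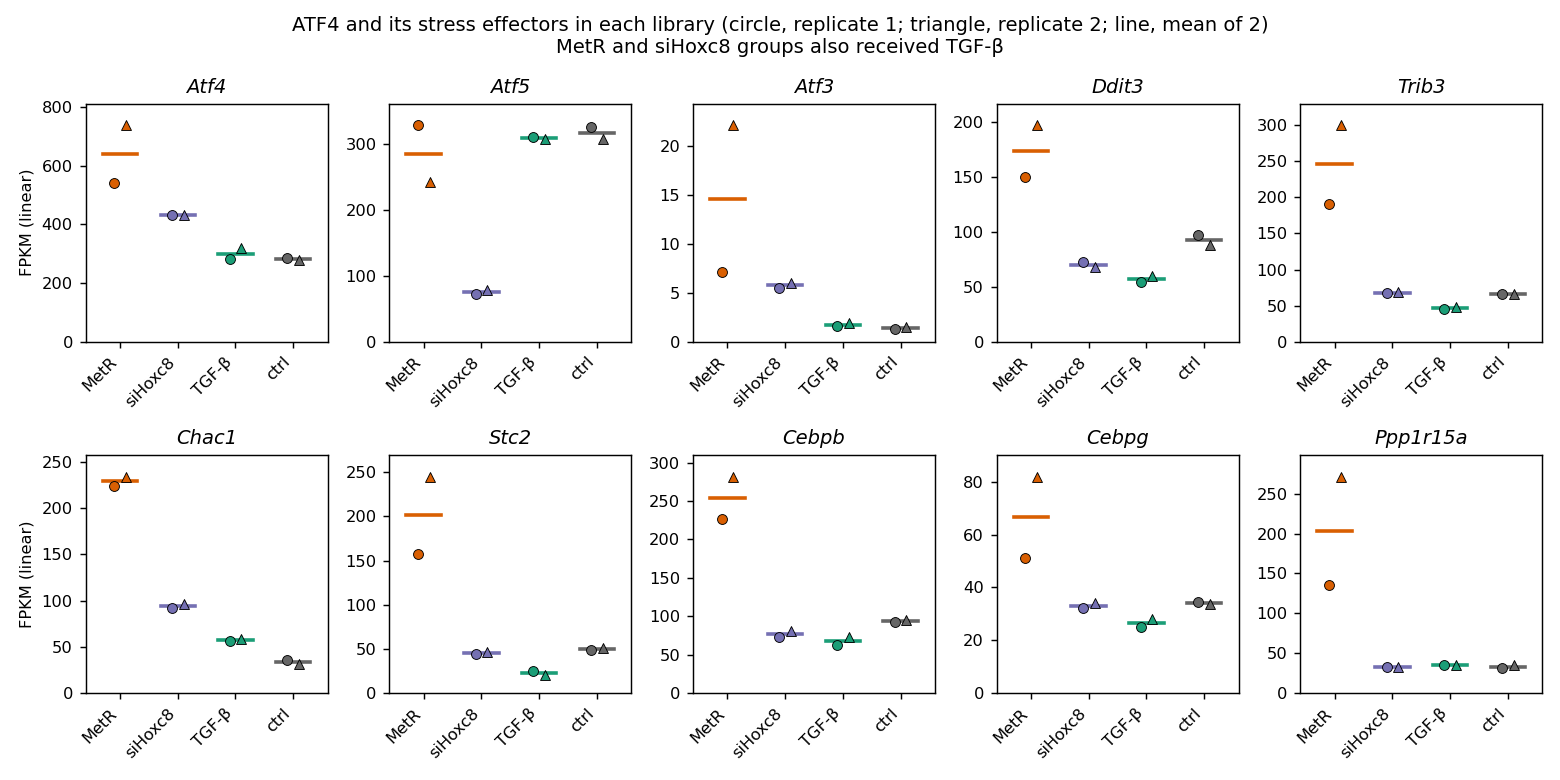
FPKM of each of the 10 genes in the 8 libraries (linear axes from 0; circles, replicate 1; triangles, replicate 2; lines, group means; from left, MetR, siHoxc8 and TGF-β alone, then control). MetR libraries stand above TGF-β libraries in 9 panels, and in the Atf5 panel the siHoxc8 libraries, at 72.9 and 78.5 FPKM, lie below all others.

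MetR replicate 2 was above MetR replicate 1 for 9 of the 10 members, the exception being Atf5. The median difference was 0.54 on the log2 scale for the members and 0.07 for all genes tested, of which 58.6% were higher in replicate 2. Against the mean of the TGF-β libraries, Atf3 differed by 1.56 in replicate 1 and by 3.08 in replicate 2, and Ppp1r15a by 1.91 and by 2.91. Stc2 differed by 2.74 and 3.37, Trib3 by 2.01 and 2.66, and Cebpg by 0.92 and 1.59. Atf4 differed by 0.85 in replicate 1 and by 1.30 in replicate 2, so the size of the rise depended on the library while its direction did not.

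Promoters of the members were read for the letters of known ATF4 and CRE sites. The 300 bases around the start (250 before and 50 after) were available for 9 members from RefSeq, build GRCr8, which is not the rn6 build listed for the series. The motifs searched on both strands were TGATGNAA and TGACGNAA, forms of the composite C/EBP-ATF site, and TGACGTCA, the CRE palindrome. They were found in 3.98%, 1.98% and 1.83% of 33469 promoters, and any of them in 7.63%. Of the 9 promoters 3 held a match, those of Trib3, Chac1 and Ppp1r15a, and 6 held none. The 250 bases before the start of these 3 genes are shown because each gene rose under MetR and its promoter holds a match. They run from 5′ to 3′ on the strand of the gene, with the matched letters in capitals, at chr3:161275534-161275783 (minus strand) for Trib3, chr3:126795881-126796130 (plus strand) for Chac1 and chr1:105139597-105139846 (minus strand) for Ppp1r15a.
Trib3: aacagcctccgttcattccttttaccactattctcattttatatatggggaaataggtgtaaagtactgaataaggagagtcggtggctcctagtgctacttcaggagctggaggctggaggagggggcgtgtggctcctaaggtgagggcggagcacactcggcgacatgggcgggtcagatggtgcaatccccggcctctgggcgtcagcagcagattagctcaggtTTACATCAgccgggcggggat
Chac1: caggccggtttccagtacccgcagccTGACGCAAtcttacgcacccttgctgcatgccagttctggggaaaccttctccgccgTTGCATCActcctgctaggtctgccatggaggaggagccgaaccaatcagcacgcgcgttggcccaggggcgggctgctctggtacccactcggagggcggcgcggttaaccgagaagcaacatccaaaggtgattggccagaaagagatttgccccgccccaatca
Ppp1r15a: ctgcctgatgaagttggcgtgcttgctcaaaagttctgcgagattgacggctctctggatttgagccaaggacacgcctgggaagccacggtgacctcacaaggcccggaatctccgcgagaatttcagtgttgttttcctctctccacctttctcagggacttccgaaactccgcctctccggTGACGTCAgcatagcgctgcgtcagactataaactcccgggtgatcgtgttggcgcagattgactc
In Trib3 the match was TTACATCA, the reverse complement of TGATGNAA, with its first base 21 bases before the start. Chac1 held 2 matches, TGACGCAA at 224 bases and TTGCATCA at 167 bases before the start. Ppp1r15a held TGACGTCA at 66 bases before the start. These are matches of letters in one window, and binding was not measured for these genes here.

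With Hoxc8 depleted, 4 members rose relative to TGF-β alone (Atf4, Atf3, Chac1 and Stc2), Atf5 fell, and 5 did not pass the test. Across all genes 28.1% were raised and 15.7% lowered, and 20.9% and 22.3% after median ratio rescaling. The members' share called was therefore near that of all genes. The median log2 fold change of the members was 0.42, against 0.13 for all genes tested, and after rescaling 0.25 against -0.01. This comparison and the one with MetR share their TGF-β libraries.

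Atf5 had 72.9 and 78.5 FPKM in siHoxc8 cells, against 310.2 and 308 FPKM with TGF-β alone and 325 and 307 FPKM in control. It was 4.08-fold lower than with TGF-β alone (-2.01 ± 0.14, adjusted p = 8.26e-05), and the call was made under all 17 alternatives. Both siHoxc8 libraries lay far below the other 6. Atf5 overlaps Nup62 and Il4i1 in the RefSeq annotation, and the strand setting of the counting is not given in the sources used here, so their reads may be shared. Nup62 had 80.1 and 79.8 FPKM in siHoxc8 cells, against 58.8 and 54.9 FPKM in TGF-β cells (0.49 ± 0.09, adjusted p = 0.00452). Il4i1 had 3.91 and 3.99 FPKM in siHoxc8 cells, against 3.46 and 3.45 FPKM in TGF-β cells (adjusted p = 0.537). The part of shared reads in the Atf5 values was not tested. Ddit3 likewise overlaps Mars1, the methionyl-tRNA synthetase gene, which had 113 and 157 FPKM in MetR cells, 127 and 126 FPKM in siHoxc8 cells, and 79.6 and 74.6 FPKM with TGF-β alone.

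Of the members that rose with siHoxc8, Chac1 had 92.3 and 96.7 FPKM in siHoxc8 cells, against 56.0 and 58.7 FPKM in TGF-β cells (0.71 ± 0.10, adjusted p = 0.00110). Stc2 had 43.7 and 46.3 FPKM, against 25.4 and 20.4 FPKM with TGF-β alone (0.95 ± 0.20, adjusted p = 0.00718). The groups of both genes stood clear of each other. Without TGF-β replicate 2 the adjusted p of Stc2 was 0.0524 (range over the alternatives 0.0005249 to 0.0524).

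Atf4 had 433 and 430.1 FPKM in siHoxc8 cells, against 281 and 319 FPKM with TGF-β alone (0.52 ± 0.15, adjusted p = 0.0261), and Atf3 had 5.54 and 6.02 FPKM, against 1.61 and 1.87 FPKM with TGF-β alone (1.31 ± 0.41, adjusted p = 0.0354). The groups did not overlap for either gene, as for all 10 members in this comparison, 5 of which did not pass the test. The share of all genes without overlap was not counted, so this separation is weak evidence. The calls of both Atf4 and Atf3 were lost under some settings. Atf4 was called under 10 of the 17 alternatives (adjusted p from 0.00247 to 0.118) and Atf3 under 9 (0.000192 to 0.144). Without TGF-β replicate 1, for example, the adjusted p was 0.118 for Atf4 and 0.144 for Atf3. The other losses are given with the alternative settings.

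The 5 members that did not pass with siHoxc8 were Trib3 (0.52 ± 0.19, adjusted p = 0.0538), Ddit3 (0.29, adjusted p = 0.138), Cebpg (0.31, adjusted p = 0.243), Cebpb (0.19, adjusted p = 0.283) and Ppp1r15a (-0.12, adjusted p = 0.754). Trib3 had 67.0 and 68.2 FPKM in siHoxc8 cells and was called under 7 of the 17 alternatives (adjusted p from 0.000587 to 0.176), and Ddit3 had 72.4 and 67.5 FPKM. For Ppp1r15a the siHoxc8 libraries, at 32.5 and 32.5 FPKM, lay just below the TGF-β libraries. Cebpb had 73.3 and 80.6 FPKM and Cebpg 32.3 and 34.0 FPKM in siHoxc8 cells, in each case above both TGF-β libraries. Ddit3 and Cebpg were each called under 3 of the 17 alternatives. These were only the 4 libraries compared (adjusted p = 0.0455 for Ddit3 and 0.0445 for Cebpg) and leaving out either MetR library. Cebpb was called under none.

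**Figure D2:**
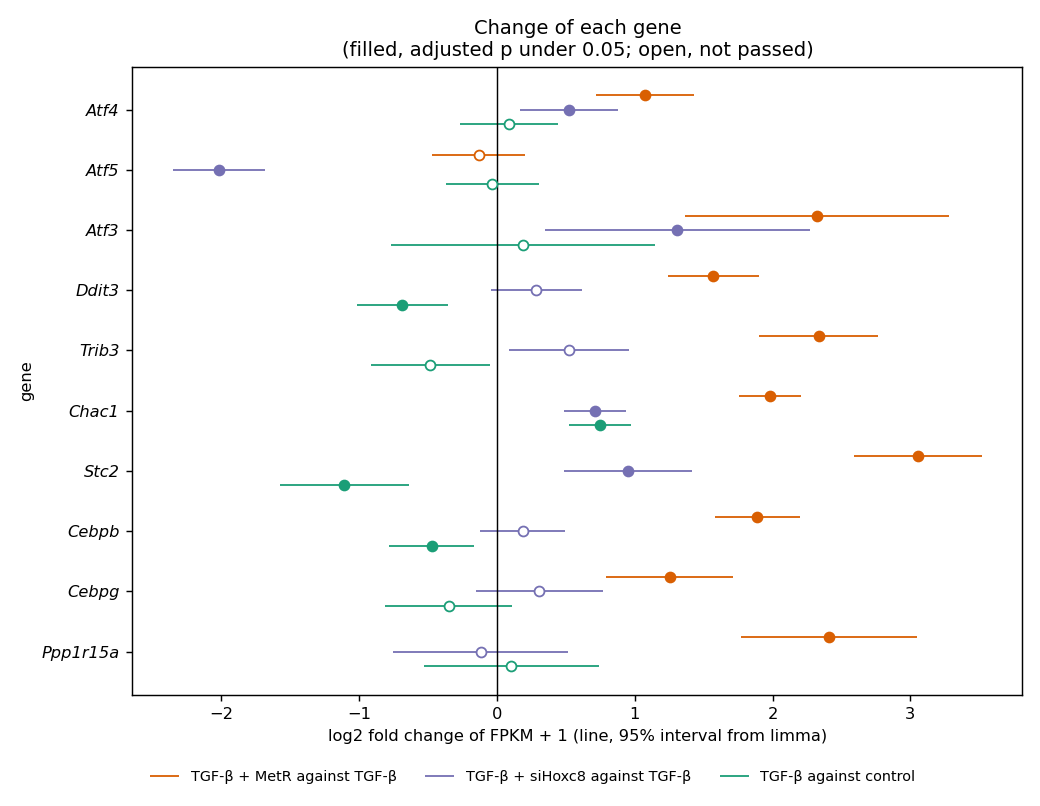
Log2 fold changes of log2(FPKM + 1) with 95% intervals for each member in MetR against TGF-β alone, siHoxc8 against TGF-β alone and TGF-β alone against control (filled, adjusted p under 0.05). Stc2 has the highest MetR value, 3.05, and Atf5 has the lowest siHoxc8 value, -2.01.

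The combined treatments were set against each other directly. In MetR cells 9 members were higher than in siHoxc8 cells, where 29.3% of all genes were raised and 24.9% lowered. Ppp1r15a differed by 2.53 ± 0.27 on the log2 scale (adjusted p = 0.000255), Stc2 by 2.10 ± 0.20 (adjusted p = 0.000151) and Atf5 by 1.88 ± 0.14 (adjusted p = 6.24e-05). Relative to TGF-β alone, Atf5 was lower in siHoxc8 cells (-2.01) and did not pass in MetR cells (-0.13). Trib3 (1.81), Cebpb (1.70), Ddit3 (1.28), Chac1 (1.27) and Cebpg (0.95) also passed in MetR against siHoxc8. Atf4 was higher by 0.55 ± 0.15 (adjusted p = 0.0171), a call lost with only the 4 libraries compared (0.0566) and without siHoxc8 replicate 1 (0.0781) or 2 (0.0791), over a range of 0.000322 to 0.0791. Atf3 was not called (1.02 ± 0.41, adjusted p = 0.0701), and it passed under 3 alternatives. With MetR replicate 1 or 2 alone, Atf3 differed by 0.26 or 1.77, Atf4 by 0.33 or 0.77 and Cebpg by 0.61 or 1.28. Atf3 was called without MetR replicate 1 (adjusted p = 0.000123, range over the alternatives 0.000123 to 0.194).

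Relative to control, TGF-β alone changed 4 of the 10 members. Chac1 rose, Stc2, Ddit3 and Cebpb fell, and 6 did not pass, Atf4 among them. Across all genes 10.3% were raised and 28.6% lowered, so the members' share called was near that of all genes. The median was -0.19 both for the members and for all genes tested, the same to 2 decimals. After median ratio rescaling the shares were 19.1% raised and 17.0% lowered, and the medians 0.04 for the members and 0.01 for all genes.

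Chac1 had 56.0 and 58.7 FPKM with TGF-β alone, against 36.03 and 31.6 FPKM in control (0.75 ± 0.10, adjusted p = 0.00113). Stc2 had 25.4 and 20.4 FPKM, against 49.0 and 51.4 FPKM in control (-1.10 ± 0.20, adjusted p = 0.00458). Both calls were made under all 17 alternatives. Ddit3 had 54.5 and 59.9 FPKM with TGF-β, against 97.3 and 88.0 FPKM in control (-0.69 ± 0.14, adjusted p = 0.00800), and was lost without control replicate 1 (adjusted p = 0.0685, range 0.00101 to 0.0685). Cebpb had 62.4 and 72.6 FPKM with TGF-β, against 92.2 and 95.3 FPKM in control (-0.47 ± 0.13, adjusted p = 0.0263). It was lost under 5 alternatives, among them median ratio rescaling (0.151) and leaving out TGF-β replicate 1 (0.120), control replicate 1 (0.110) or control replicate 2 (0.134), with a range of 0.00645 to 0.151. These 4 genes had groups that did not overlap.

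Atf4 had 281 and 319 FPKM with TGF-β alone, against 287 and 277 FPKM in control, and the groups overlapped (0.09 ± 0.15, adjusted p = 0.668). Trib3 had 45.8 and 47.6 FPKM, against 65.8 and 65.6 FPKM in control, without overlap, and missed the threshold (-0.48 ± 0.19, adjusted p = 0.0755). Cebpg had 25.0 and 28.2 FPKM, against 34.6 and 33.7 FPKM in control (-0.35 ± 0.20, adjusted p = 0.199). Trib3 and Cebpg each passed under 4 alternatives: only the 4 libraries compared, library weights, and leaving out either MetR library. Atf3 (0.19, adjusted p = 0.739), Ppp1r15a (0.11, adjusted p = 0.783) and Atf5 (-0.03, adjusted p = 0.875) did not pass.

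Set against untreated control, MetR cells had 9 members higher and none lower, with 28.0% of all genes raised and 29.3% lowered. On the log2(FPKM + 1) scale Chac1 differed by 2.73 ± 0.10 (adjusted p = 5.92e-06), Ppp1r15a by 2.52 and Atf3 by 2.51, ahead of Stc2 (1.95), Trib3 (1.85), Cebpb (1.42), Atf4 (1.16), Cebpg (0.90) and Ddit3 (0.88). As a ratio of mean FPKM Atf3 was higher than Chac1, at 10.5-fold and 6.78-fold. With MetR replicate 1 or 2 alone Atf3 was at 1.76 or 3.27, Ppp1r15a at 2.02 or 3.01, Cebpg at 0.57 or 1.24 and Chac1 at 2.70 or 2.76, so their order depended on the library. The 9 calls were made under all 17 alternatives, and Atf5 was not called (-0.16, adjusted p = 0.359). In siHoxc8 cells 3 members were above control (Chac1 by 1.46, Atf3 by 1.50 and Atf4 by 0.61) and 2 below (Atf5 by 4.17-fold and Ddit3, at -0.40 with adjusted p = 0.0494). Over all genes 21.7% were raised and 27.0% lowered, so the members' share called was near that of all genes. The Ddit3 call was made under 7 of the 17 alternatives. The Atf4 call was lost without either control library (0.0604 and 0.0749) or either siHoxc8 library (0.0672 and 0.0632), over a range of 7.66e-05 to 0.0749. The Atf3 call was lost in the same 4 settings (0.0662 to 0.0787) and without a filter (0.0567), with a lowest adjusted p of 6.55e-05. Trib3 (0.04), Stc2 (-0.15), Cebpb (-0.28), Cebpg (-0.04) and Ppp1r15a (-0.01) did not pass in siHoxc8 cells against control.

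The order of the levels differed among the members. Chac1 had 4 separate levels, MetR above siHoxc8 above TGF-β alone above control, with each neighboring pair past the threshold. Atf4 followed the same order, except that TGF-β alone and control did not differ beyond their spread. For Stc2, Ddit3, Cebpb and Cebpg control came second after MetR, by group mean above siHoxc8 and then TGF-β alone, but not all neighbors in that order were separated. For Trib3 siHoxc8 and control were nearly level (adjusted p = 0.870) above TGF-β alone, and for Cebpg the control and siHoxc8 libraries overlapped (adjusted p = 0.877). Cebpb in siHoxc8 was separated neither from control (adjusted p = 0.114) nor from TGF-β alone (0.283), and Ddit3 in siHoxc8 was not separated from TGF-β alone (0.138). In Stc2 the control and siHoxc8 levels were not separated (adjusted p = 0.551), and siHoxc8 was above TGF-β alone. Ppp1r15a was high in MetR cells and did not differ by the test among the other 3 groups. Atf5 was low in siHoxc8 cells and was not separated among the other 3.

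As a description over the 8 libraries, which share the 4 treatments, the log2 levels of the other members tracked Atf4 with Pearson r of 0.99 for Atf3, 0.95 for Chac1, 0.89 for Trib3, 0.87 for Cebpg, 0.86 for Ppp1r15a, 0.84 for Stc2, 0.81 for Cebpb and 0.75 for Ddit3. For Atf5 it was -0.27. Among 3299 genes with a mean of at least 5 FPKM and group means that span at least 1 on the log2 scale, those most like Atf4 were Pgam5 (r = 0.999), Spryd4 (0.995), Rhbdd3 (0.994), Tbrg4 (0.994) and Uspl1 (0.993).

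Genes around the members were described by list. Of the 19 tested genes for amino acid uptake, amino acid synthesis and folate metabolism, textbook ATF4 targets for the most part, 11 rose under MetR relative to TGF-β alone, 3 fell and 5 did not pass (median 0.59), beside 34.8% raised and 19.0% lowered over all genes. After median ratio rescaling 9 rose and 3 fell (median 0.38), beside 25.5% and 26.6% over all genes. Slc7a5, the large neutral amino acid transporter that carries methionine, rose by 2.55 ± 0.17 (adjusted p = 7.03e-05), to 280 ± 73 FPKM in MetR cells, against 46.2 ± 4.0 FPKM with TGF-β alone (SD, n = 2). Slc7a1, the cationic amino acid transporter, rose by 1.62 and Shmt2, the mitochondrial serine hydroxymethyltransferase, by 1.18. The 3 that fell were Pck2 (-1.50), which makes phosphoenolpyruvate in mitochondria, and, named after their values were seen, Pycr1 (-0.61) of proline synthesis and Phgdh (-0.37) of serine synthesis. Asns, the asparagine synthetase gene and a textbook ATF4 target, also named after its value was seen, had 139 ± 20 FPKM in MetR cells and 112 ± 1 FPKM with TGF-β alone (0.30 ± 0.11, adjusted p = 0.0501).

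With siHoxc8 16 of the same 19 genes rose relative to TGF-β alone, none fell and 3 did not pass (median 0.71), or 12 rose after median ratio rescaling. Over all genes 28.1% were raised and 15.7% lowered. Slc7a5 rose by 2.66 ± 0.17 (adjusted p = 5.64e-05), to 297 ± 3 FPKM in siHoxc8 cells. Aldh1l2, a mitochondrial folate enzyme, rose by 1.82, Gpt2, the mitochondrial alanine transaminase, by 1.61, and Psph, the last enzyme of serine synthesis, by 1.46. Set directly against siHoxc8, MetR cells had 4 of these genes higher, 7 lower and 8 not passed, with 6 higher and 7 lower without MetR replicate 1 and 4 higher and 10 lower without replicate 2. Over all genes 29.3% were higher in MetR than in siHoxc8 cells and 24.9% were lower. The lower genes of the list included Pck2 (-2.18), Aldh1l2 (-1.70), the glutamine transporter Slc1a5 (-1.54) and Gpt2 (-1.33).

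**Figure D3:**
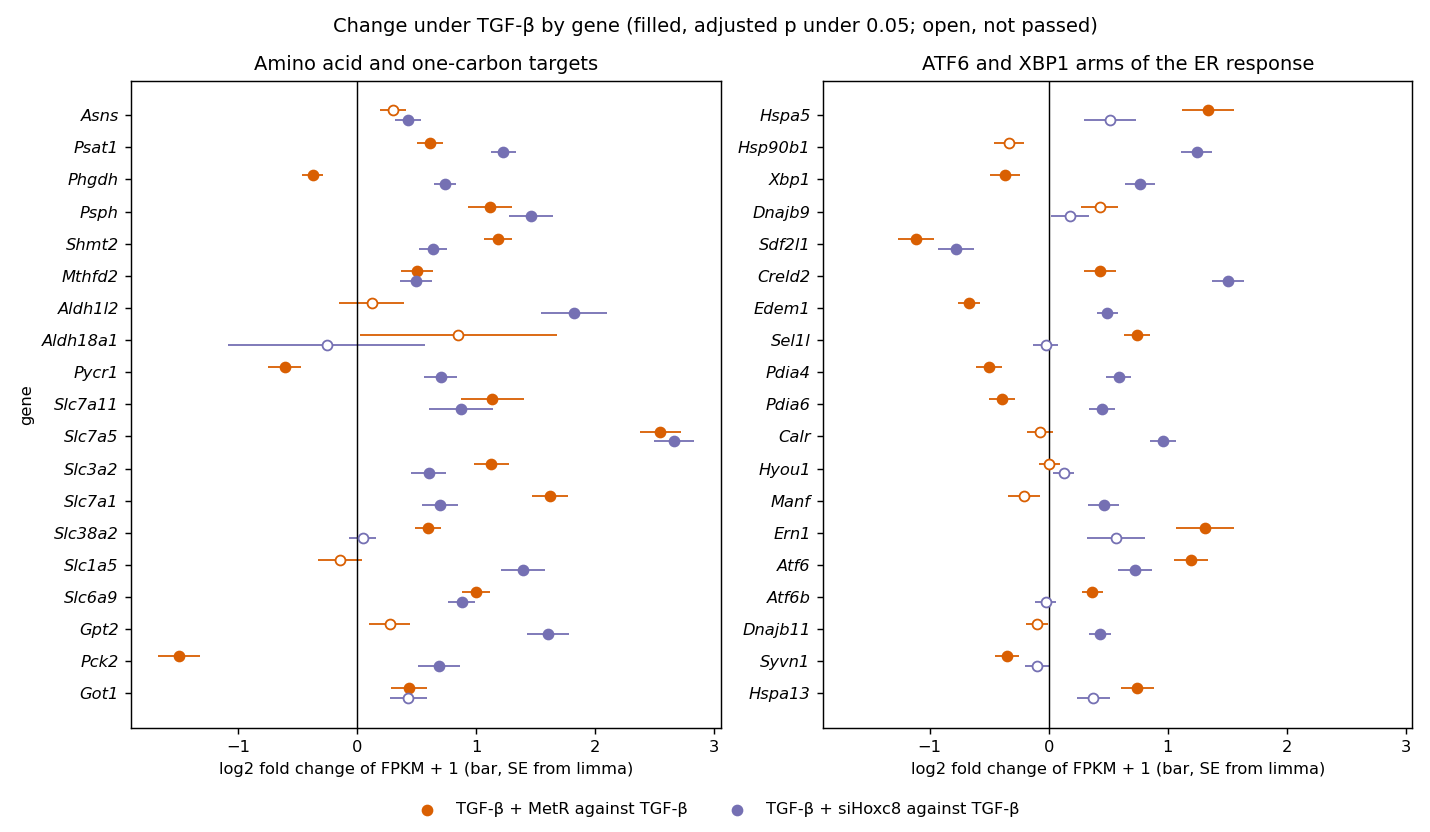
Log2 fold changes of log2(FPKM + 1) ± SE for the amino acid and folate genes and for the genes of the ATF6 and XBP1 arms, in MetR and in siHoxc8 against TGF-β alone (filled, adjusted p under 0.05). Slc7a5 is high in both (2.55 and 2.66), and Pck2 is lower in MetR (-1.50) and higher in siHoxc8 (0.69).

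The chaperone and folding genes under ATF6 and XBP1, the other branches of the unfolded protein response, were mixed under MetR: of 19 tested, 7 rose, 6 fell and 6 did not pass (median -0.07), or 5 rose and 9 fell after median ratio rescaling. The main shares over all genes were 34.8% raised and 19.0% lowered, and after rescaling 25.5% and 26.6%. Hspa5, the chaperone BiP, rose by 1.34 ± 0.22 (adjusted p = 0.00176), to 795 ± 282 FPKM in MetR cells, against 305 ± 30 FPKM with TGF-β alone, the stress sensor genes Ern1 and Atf6 rose by 1.31 and 1.20, and Sdf2l1 fell by 1.11. With siHoxc8 10 rose, Sdf2l1 alone fell, at -0.78, and 8 did not pass (median 0.46). Creld2 rose by 1.51 and the chaperone genes Hsp90b1 and Calr by 1.25 and 0.96. Over all genes 28.1% were raised and 15.7% lowered with siHoxc8. The shares in MetR against siHoxc8 were 29.3% and 24.9%. In MetR against siHoxc8 5 were higher and 9 lower, Hsp90b1 (-1.58), Edem1 (-1.16), Xbp1 (-1.14) and Pdia4 (-1.09) among them, and without MetR replicate 2 the counts were 3 and 9.

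The growth, autophagy and secreted targets had 11 of 16 raised under MetR, none lowered and 5 not passed (median 0.61). After median ratio rescaling 10 were raised and 1 lowered (median 0.40). Over all genes 34.8% were raised and 19.0% lowered under MetR, and 25.5% and 26.6% after rescaling. Gadd45a, a growth arrest gene, rose by 2.54, with MetR libraries far apart (936 ± 423 FPKM, against 152 ± 11 FPKM with TGF-β alone), Sesn2, a restraint on mTORC1, by 1.62, the tRNA exporter Xpot by 1.22 and Eif4ebp1, a brake on translation, by 0.83. With siHoxc8 7 rose and 4 fell, beside 28.1% of all genes raised and 15.7% lowered. The hormone gene Fgf21 rose by 1.51 and Nupr1 by 1.08, while Klhl24 and Gadd45a fell by 1.20 and 1.15. Fgf21 was near the floor, at 2.02 ± 0.62 FPKM in siHoxc8 cells, against 0.049 ± 0.069 FPKM with TGF-β alone. Gadd45a thus lay 3.69 higher in MetR than in siHoxc8 cells (adjusted p = 5.28e-05).

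Of 19 other bZIP factors 13 rose under MetR, 2 fell and 4 did not pass (median 0.73), led by Junb (2.66), Fosl1 (2.44), Nfil3 (1.81) and Mafk (1.70). For this list and the cell death genes below, 34.8% of all genes were raised and 19.0% lowered under MetR. The shares with siHoxc8 were 28.1% and 15.7%. The MetR libraries of Junb (449 ± 217 FPKM) and Fosl1 (86.7 ± 60.1 FPKM) were far apart, against 66.0 ± 8.1 and 13.1 ± 0.1 FPKM with TGF-β alone. With siHoxc8 8 rose, with Batf3 (2.75), Fosl1 (2.01) and Junb (1.16) among them, and Fosl2 fell by 1.23. Batf3 was low, at 7.26 ± 0.66 FPKM in siHoxc8 cells, against 0.23 ± 0.11 FPKM with TGF-β alone. Of 8 tested genes of cell death tied to CHOP, 5 rose under MetR and 2 fell. Bcl2l1 (1.56) and Bcl2 (1.08), which restrain apoptosis, rose as did Bcl2l11 (1.01), which promotes it, and Ero1a, an oxidase of the endoplasmic reticulum, fell by 1.48. Bcl2 was low, at 2.99 ± 0.48 FPKM in MetR cells, against 0.89 ± 0.20 FPKM with TGF-β alone. In MetR cells against control Bcl2l1 was higher (1.14), but Bcl2 (-0.19, adjusted p = 0.370) and Bcl2l11 (-0.33, adjusted p = 0.0811) did not pass. With siHoxc8 1 rose and 4 fell (none and 4 after median ratio rescaling), namely Pmaip1 (-1.28), Ero1a (-0.87), Bcl2l1 (-0.62) and Bax (-0.33).

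Genes upstream of ATF4 were counted likewise. Of 16 genes for eIF2 kinases, eIF2 and its exchange factor, 5 rose under MetR, 3 fell and 8 did not pass, near the shares of 34.8% raised and 19.0% lowered over all genes, with a median of 0.13 that was -0.08 after median ratio rescaling. Without MetR replicate 1 10 of them rose, and 2 rose after median ratio rescaling. The largest called changes were in Eif2b1 (0.76), Eif2s3 (-0.73), Gcn1 (0.66) and Impact (-0.45). With siHoxc8 3 rose and 2 fell, or 6 and 3 without either MetR library, with Eif2b4 (-0.73), Eif2b1 (0.66), Eif2s3 (0.62) and Eif2ak3, the gene of PERK (-0.60), the largest called changes. Of 6 tested paralogs of the members, 3 rose under MetR, Trib1 by 1.44, Chac2 by 0.71 and Ppp1r15b by 0.52, and 1 rose after median ratio or quantile rescaling. With siHoxc8 4 rose, Trib2 by 1.81, Trib1 by 1.74, Cebpa by 1.16 and Chac2 by 0.68. Over all genes 28.1% were raised and 15.7% lowered with siHoxc8.

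With TGF-β alone against control, 10.3% of all genes were raised and 28.6% lowered, or 19.1% and 17.0% after median ratio rescaling. The lists followed the general fall or split. The eIF2 genes had none raised and 3 lowered, the amino acid genes 2 raised and 1 lowered, the growth and secreted targets 2 and 4, the ATF6 and XBP1 arms 1 and 6, the other bZIP factors 5 and 5, the cell death genes 4 and 3 and the paralogs none and 2. Psat1 of serine synthesis fell by 0.92 and Slc38a2 rose by 0.47 among the amino acid genes. Pmaip1 rose by 1.96, and Bcl2l11 and Bcl2 fell by 1.34 and 1.26 among the cell death genes. After median ratio rescaling the ATF6 and XBP1 arms had 7 raised and 3 lowered, the eIF2 genes 2 and none, the amino acid genes 4 and 1 and the growth and secreted targets 5 and 2. Without either MetR library, the eIF2 genes had 2 raised and 6 lowered, the amino acid genes 4 and 5 and the growth and secreted targets 4 and 5, so these splits depended on the scaling and on which libraries set the spread.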

How the data were processed

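RNA-seq of NRK-49F cells was analysed in 8 libraries, grouped by their titles; the 20 chromatin samples were not analysed here. The authors deposited FPKM values per gene symbol, per the labels. The submitters' processing notes list featureCounts, Bowtie2 2.3.5.1, Trim Galore, deepTools and the rn6 build, with no roles. The annotation and the scaling total were not given in the sources used here. Values were whole multiples of 1 read for 100% of 19435 genes above 0 (tolerance 0.02 reads), which gave the depth. FPKM are relative, so a change in total RNA per cell is not seen.

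Differences were tested on log2(FPKM + 1), a scale that understates changes of low genes, with limma 3.58.1 in R 4.3.3, as 1 model over all 8 libraries with moderated variances and a trend. Tests covered the 12315 genes that reached 1 FPKM in 2 or more libraries and were two-sided, with Benjamini-Hochberg adjustment over all of them within a comparison and a threshold of 0.05. The script was tested on simulated data in which all groups had the same spread, while the MetR replicates here stood further apart than the others. Folds are ratios of group means of FPKM. The text names all members and, of each list, up to 4 called genes by size of change; exceptions are marked. The members and lists were chosen with earlier results of these data known. Alternatives changed the pseudocount (0.1), the filter (none, or at least 5 FPKM), the scaling, the libraries in the fit and their weights, added the replicate number as a block, tested the recovered reads with limma-voom, and left out each library. Motifs were matched to RefSeq promoters (GRCr8).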

Additional observations from a re-analysis of the deposited data

How the results depend on the processing

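Over the 17 alternatives, 932 values of members kept their direction and side of the threshold, 44 lost their call, 32 gained one and 12 changed sign, none of them called. The 9 rises under MetR, against TGF-β alone and against control, and the fall of Atf5 with siHoxc8 were called in every alternative. Members lowered by TGF-β numbered 3, and 5 with only the 4 libraries compared and 5 with library weights (1 to 5 with a library left out). Members raised by siHoxc8 against TGF-β numbered 4, and 2 without a filter and 7 with only the 4 libraries (2 to 7 with a library left out). In siHoxc8 against control 2 were lowered, and 1 with a pseudocount of 0.1, without a filter, after median ratio rescaling and with the replicate block, and 4 with only the 4 libraries (1 to 3 with a library left out), while 3 were raised (1 to 3). Members lowered in MetR numbered 0 to 1 with a library left out, against TGF-β and against control. Members higher in MetR than in siHoxc8 numbered 9 (8 to 10).

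The calls of siHoxc8 against TGF-β lost for Atf4 had adjusted p of 0.0650 without a filter, 0.0693 after median ratio rescaling, 0.118 without TGF-β replicate 1, 0.115 and 0.108 without siHoxc8 replicate 1 or 2, and 0.0512 and 0.0513 without control replicate 1 or 2. For Atf3 they were 0.0936 without a filter, 0.0518 with limma-voom on recovered reads, an alternative chosen after seeing the data, 0.106 and 0.124 without siHoxc8 replicate 1 or 2, 0.144 and 0.112 without TGF-β replicate 1 or 2, and 0.0534 without either control library. Cebpb in TGF-β against control was at 0.0508 without a filter. The cause was not tested. Signs changed for log2 fold changes near 0, after rescaling or with a library left out. After median ratio rescaling, TGF-β against control gave 0.20 for Atf5, and siHoxc8 against control gave 0.020 for Cebpg and 0.051 for Ppp1r15a. After quantile normalization, Atf5 was 0.11 in MetR against TGF-β and 0.0094 in MetR against control, Atf4 was -0.014 in TGF-β against control, and Trib3 was -0.034 in siHoxc8 against control. With a library left out, TGF-β against control ran from -0.0020 to 0.181 for Atf4 and from -0.0754 to 0.011 for Atf5. Atf5 ran from -0.350 to 0.0863 in MetR against TGF-β and from -0.382 to 0.0542 in MetR against control, and Ppp1r15a from -0.0910 to 0.0697 in siHoxc8 against control.

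Whether same-numbered libraries were paired could not be decided from 2 libraries per group. Their deviations correlated at -0.0196 to 0.202, highest in MetR against TGF-β. The replicate block moved the count of lowered members in siHoxc8 against control to 1 (Ddit3 lost, adjusted p = 0.0565). The block also called Trib3 in siHoxc8 against TGF-β (0.0412) and Atf3 in MetR against siHoxc8 (0.0436). The 2 planned count tests were not run, since the deposited values are FPKM. Over all genes, those raised by TGF-β numbered 1269 (599 to 2349 over the alternatives) and those lowered 3523 (1577 to 4546). With MetR against TGF-β 4289 were raised (3017 to 4687) and 2345 lowered (1616 to 3281), and with siHoxc8 3460 (1933 to 4319) and 1934 (1145 to 2743). Depth limits Atf3, with 70 reads in its lowest library.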
